A study of Mus musculus with 72 samples.

Results

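Blood gene expression 7 days after irradiation was compared directly between mice given 1 Gy and mice given 0.25 Gy of neutrons. All samples titled as 1 Gy or 0.25 Gy of neutrons at day 7 were taken, which gave 6 and 5 arrays, 11 of the 72 in the series, with the blood RNA of 1 mouse on each array. The article describes 6 mice for each treatment and day and names no lost sample of 0.25 Gy neutrons at day 7. Why only 5 arrays carry that title is not stated. The mice were male C57BL/6 animals irradiated at 8 to 10 weeks of age, over the whole body, with a beam that mimics the neutron spectrum of an improvised nuclear device and that also carries a gamma-ray component. Blood was drawn by cardiac puncture into an RNA stabilising solution, globin transcripts were reduced, and the remaining RNA was hybridised to 1-colour mouse arrays. The 6 sham-irradiated mice of day 7, which were placed in the holders with the beam off, are given as background. For contrasts with day 1, mice given 1 Gy or 0.25 Gy of neutrons were taken 1 day after irradiation (6 and 6 arrays). For contrasts with x-rays, mice given 4 Gy or 1 Gy of x-rays were taken at day 7 (6 and 5 arrays). Scan date was not a term in those contrasts.

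Blood cells differ widely in their response to radiation. B cells die readily after irradiation, T cells and natural killer (NK) cells less so, and mature neutrophils, platelets and red cells no longer divide and are replaced from the bone marrow. Young red cells, the reticulocytes, still carry RNA for heme synthesis, the membrane skeleton and the clearance of their organelles. In whole blood the level of a transcript follows the number of cells that hold it as well as the amount per cell, and fewer cells of a type and less RNA per cell cannot be told apart.

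The array files and the table of processed values disagreed on which sample is which. Of the 11 columns of that table that are named for these samples, 0 followed their own array, 8 followed another array of their own group and 3 followed an array of another group. The column named for 1 Gy replicate 1, for example, followed the array file of 0.25 Gy replicate 5. All values therefore rest on the array files and their labels. No column of their own group followed 3 of the 11 arrays, namely 0.25 Gy replicates 4 and 5 and 1 Gy replicate 6, and results are also given without these 3.

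The arrays also differed in brightness and in when they were scanned. The share of spots well above background was between 49.5% and 58.2% at 0.25 Gy, between 40.2% and 50.3% at 1 Gy, and between 54.3% and 63.9% in the controls. The mean of the 1 Gy arrays was lower than that of the 0.25 Gy arrays by 8.45 percentage points (exact permutation test over 462 splits, 2-sided, p = 0.00649). When spots over 2 times the background were counted instead, the mean was higher at 1 Gy by 1.96 points (exact permutation p = 0.978). That mean holds 86.5% on 1 Gy replicate 4, against 39.7% to 50.3% on the other 1 Gy arrays and 44.4% to 53.5% at 0.25 Gy. All 0.25 Gy arrays and 1 Gy replicate 1 were scanned on the same day, while the other 5 arrays of 1 Gy were scanned on 2 later days, so a fit with scan date as a block rests its dose difference on 1 Gy replicate 1. That array stood apart in hepatocyte genes, markers of a cell type that does not belong to blood. The 30 hepatocyte genes on the array summed to 0.0718% of its signal, against 0.0057% to 0.0249% on the other 1 Gy arrays, 0.00818% to 0.0438% at 0.25 Gy and 0.00677% to 0.0415% in the controls. Of the 11 hepatocyte genes tested, none differed between the doses at the thresholds used here (limma, with 0 at an unadjusted p under 0.05 and 0 by the random variance test). In the fits that rest on 1 Gy replicate 1 their median difference was far higher, at 3.44 with 2 genes called higher with scan date as a block and at 3.28 with 1 called within the shared slide. The part of this material in the results was not tested.

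Of 10826 genes tested, 3360 differed between 1 Gy and 0.25 Gy at p below 0.001 and a false discovery rate below 0.05 (limma). At the higher dose 2334 genes (21.6%) were higher and 1026 (9.48%) were lower. The groups did not overlap for 2192 of the higher and 979 of the lower genes. All values are log2 levels relative to the median of the detected probes of each array, and on this scale the median difference over all genes tested was 0.26, so a difference near that value marks a gene that moved with the bulk. The split into higher and lower calls depends on that centre. With the 75th percentile as centre, which moved the genes in common by a median of -0.14, 2015 genes were higher and 1531 lower. The median of all probes moved them by -0.25 and gave 1531 and 1784, and quantile normalization gave 1620 and 1353. On the spike-in control spots as centre, which moved them by -0.90, 274 genes were higher and 4430 lower. Setting dim spots to missing moved them by -0.45 and gave 1369 and 2069, dropping the 1.5-fold filter 2609 and 1876, and dropping the detection filter 7032 and 936. With normexp background correction 35 genes were higher and 52 lower, among them 15 B cell and 2 class II genes and 1 red cell membrane gene.

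The level on 1 Gy replicate 1, which shared its scan with the 0.25 Gy arrays, lay beyond every 0.25 Gy array in the called direction for 2300 of the higher and 1018 of the lower genes. That array is 1 of the 6 behind these calls, and most called genes had no overlap. The count is therefore no separate check of scan date. With scan date as a block 1237 genes differed, of which 843 were called in the same direction without the block. Within the 1 slide that held both doses, with 1 array of 1 Gy against 3 of 0.25 Gy, 522 genes differed, and the lone 1 Gy array is assumed there to vary as the others. Without the 3 arrays that no column of their own group followed, 2038 genes differed. For most called genes the control mean lay on the far side of the 0.25 Gy mean, an order not counted over all genes tested. For 1795 of the 2334 higher genes the mean level was lowest in the controls and intermediate at 0.25 Gy, and for 680 of the 1026 lower genes it was highest in the controls and intermediate at 0.25 Gy.

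**Figure D1:**
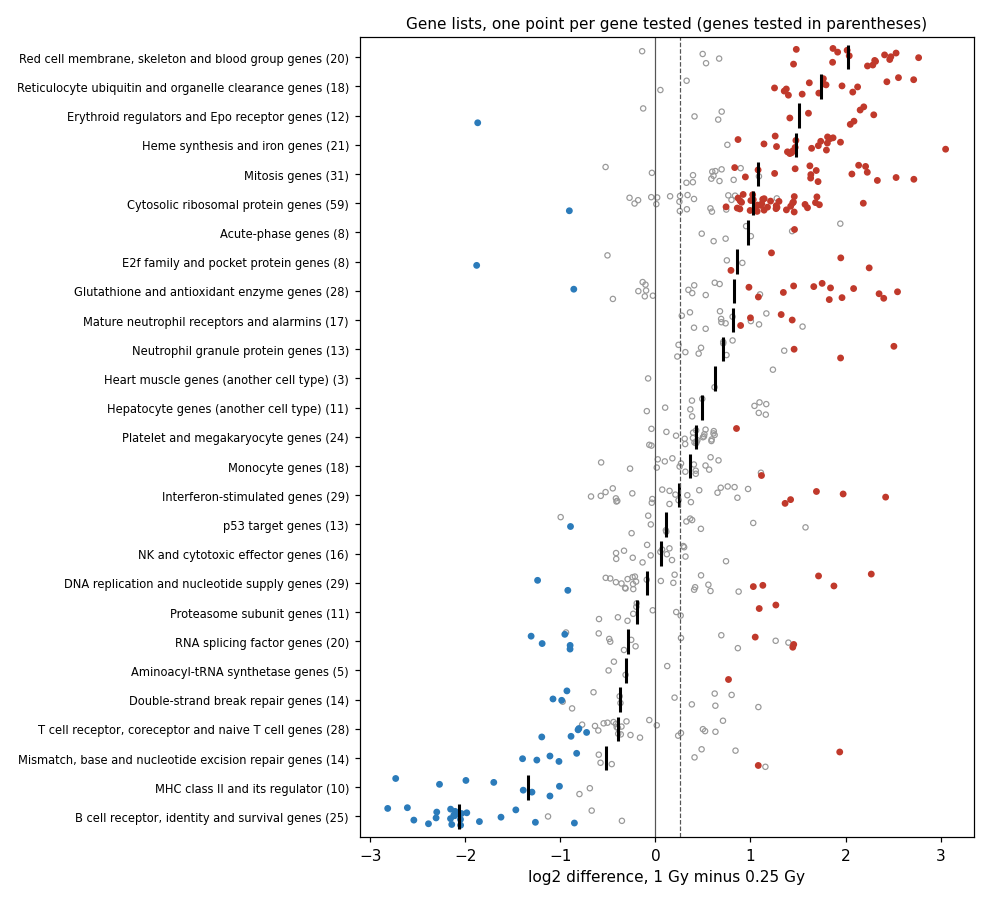
Log2 difference of 1 Gy minus 0.25 Gy at day 7 (horizontal axis) for every tested member of 27 gene lists (rows). Filled red points passed the test as higher, filled blue points as lower and open points did not pass; the black bar is the median of the list and the dashed line the median of all genes tested, 0.26. B cell genes lie furthest to the left, with a median of -2.06, and red cell membrane genes furthest to the right, with a median of 2.03.

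The largest rises and falls between the doses were steep. Atf5, a transcription factor of the amino acid stress response, had log2 levels of 1.70, 1.59, 2.10, 2.51 and 1.96 on the 0.25 Gy arrays, and of 6.18 to 7.81 with a median of 7.29 at 1 Gy. The lower dose overlapped the controls (1.34 to 2.51), and the higher dose was 36.0-fold above the lower (log2 difference 5.17, SE 0.29, adjusted p = 2.12e-06). Its probe lies at chr7:52067627-52067686 (mm9). Mthfd2, a mitochondrial enzyme of folate metabolism (probe at chr6:83256518-83256577), had levels of 0.13, 0.03, 0.55, 0.61 and 0.40 at 0.25 Gy and of 3.71 to 5.00 at 1 Gy with a median of 4.69. The groups lay far apart, with a 17.4-fold difference (log2 4.12, SE 0.27). Dppa2, a gene known from early embryos and pluripotent cells, had levels of 1.5, 1.56, 2.76, 1.57 and 2.46 at 0.25 Gy and of 5.29 to 5.96 at 1 Gy, a 12.1-fold difference. Tmem86b, which encodes an enzyme of plasmalogen breakdown, was 14.3-fold higher (log2 3.84, SE 0.43), but was well above background on only 2 of the 5 arrays of 0.25 Gy.

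Among the falls, H2-Ob, a chain of the class II accessory molecule H2-O, had levels of 4.81, 4.91, 4.49, 4.48 and 4.62 at 0.25 Gy and of 1.65 to 2.15 with a median of 1.96 at 1 Gy. The 0.25 Gy arrays lay within the control range of 3.94 to 4.96, and the 1 Gy arrays were 6.65-fold lower (log2 difference -2.73, SE 0.16, adjusted p = 2.12e-06). Tnfrsf13c, the receptor for the B cell survival factor BAFF, had levels of 3.00, 4.25, 2.68, 2.83 and 3.00 at 0.25 Gy and of 0.01 to 0.86 at 1 Gy, a 7.05-fold fall. Pla2g2d, a secreted phospholipase, was 6.73-fold lower and Srpk3, a kinase of splicing factors, 7.06-fold lower, the latter with 4 of 6 arrays of 1 Gy well above background. These 8 genes were chosen among those whose groups did not overlap. With scan date as a block 7 of the 8 were still called, the exception being Tmem86b.

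**Figure D2:**
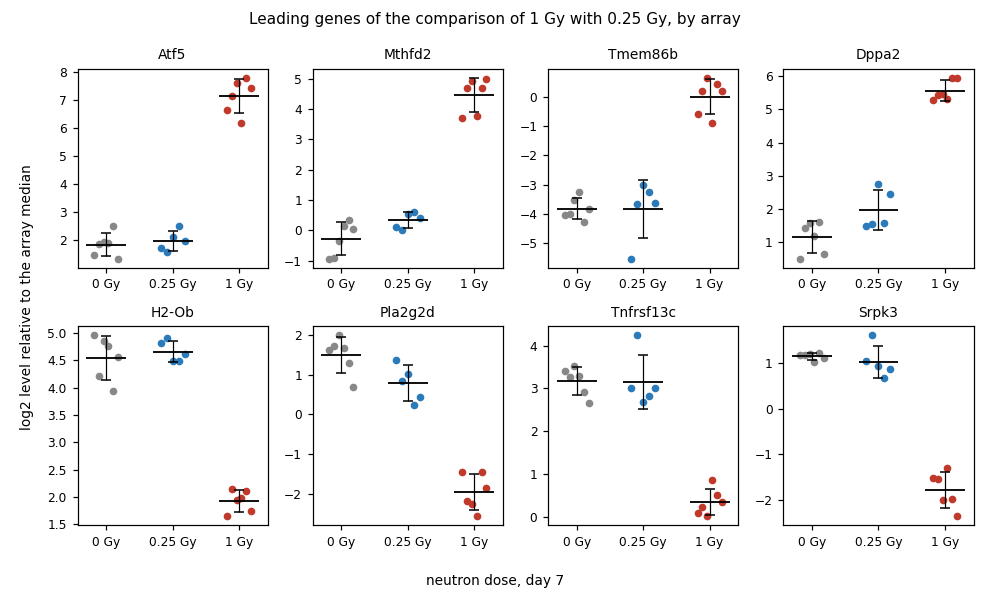
Log2 level relative to the array median (vertical axis) for the 4 genes with the largest rise (top row) and the 4 with the largest fall (bottom row) in 0 Gy, 0.25 Gy and 1 Gy arrays of day 7 (horizontal axis). Points are arrays, horizontal lines means and bars 1 SD; for Atf5 the 0.25 Gy arrays lie between 1.59 and 2.51 and the 1 Gy arrays between 6.18 and 7.81.

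B cell transcripts made up the most uniform fall. Of 28 genes of the B cell receptor, B cell identity and B cell survival, 25 were tested and 22 fell, with a median difference of -2.06. Averaged over the 25 genes, the arrays had levels of 0.56 to 0.96 at 1 Gy, 2.50 to 3.06 at 0.25 Gy and 2.59 to 2.90 in the controls, so the lower dose overlapped the controls and the higher dose did not. Vpreb3, a gene of the B lineage that assembles with antibody light chains, had levels of 4.05, 5.61, 4.09, 4.06 and 4.29 at 0.25 Gy and of 1.51 to 2.22 with a median of 1.73 at 1 Gy, a 6.11-fold fall (log2 difference -2.61, SE 0.28). All arrays of 1 Gy lay below all arrays of 0.25 Gy. The signal chains of the B cell receptor fell, Cd79a by 2.16 (SE 0.23) and Cd79b by 2.31 (SE 0.17) on the log2 scale. Ms4a1, which encodes CD20, fell by 2.30 (SE 0.24). Among the transcription factors Ebf1 fell by 2.12, Spib by 2.15 and Pou2af1 by 2.11. Blk, a kinase of the B cell receptor, was not well above background on any array of 1 Gy. Cd22, an inhibitory coreceptor (-0.35), the complement receptor gene Cr2 (-1.13) and Pou2f2 (-0.67) did not pass the test.

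The antibody transcripts went the same way. Of 122 probes that the files describe as immunoglobulin chains, a set chosen after the values were seen, 64 were tested and 52 were lower at 1 Gy, with a median difference of -1.76. In the fit with scan date as a block 34 were called lower. On 14 of the 52 no array of 1 Gy was well above background. Variable segments share sequence, so these probes are not independent of each other.

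The genes of the major histocompatibility complex (MHC) class II, which present peptides on B cells, monocytes and dendritic cells, fell with them. Of 10 genes tested 8 were lower, with a median of -1.35. H2-DMb2, a chain of the peptide loading molecule H2-DM, had levels of 1.08, 1.13, 1.04, 0.63 and 0.75 at 0.25 Gy and of -1.78 to -0.91 at 1 Gy, a 4.83-fold fall. The presenting chains themselves fell by less, H2-Eb1 by 1.70 (SE 0.19), H2-Ab1 by 1.39 (SE 0.23) and H2-Aa by 1.30 (SE 0.16) on the log2 scale. Cd74, the invariant chain, fell by 1.11 (SE 0.19). The difference of Ciita, the regulator that drives the class II genes, was -0.80 and did not pass. The medians of both lists were below 0 under every scaling tried, with values of -2.96 and -2.24 on the spike-in spots. With scan date as a block 17 B cell and 7 class II genes were called lower.

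Class II promoters are known for a shared set of elements, among them the Y box, which is bound by the factor NF-Y. The promoters of H2-Aa and H2-Eb1 are printed because both genes fell and both hold it. Each is 300 bases of the RefSeq start site region in build GRCm38.p6, a later build than that of the probes, at chr17:34287774-34288073 on the minus strand and at chr17:34305617-34305916 on the plus strand, written 5′ to 3′ with the letters CTGATTGG in capitals.
H2-Aa: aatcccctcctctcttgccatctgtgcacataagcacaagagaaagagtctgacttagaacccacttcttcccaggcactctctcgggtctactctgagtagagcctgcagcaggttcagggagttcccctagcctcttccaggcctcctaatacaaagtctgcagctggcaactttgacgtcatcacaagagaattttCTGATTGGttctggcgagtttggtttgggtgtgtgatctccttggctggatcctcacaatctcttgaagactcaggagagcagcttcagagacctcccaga
H2-Eb1: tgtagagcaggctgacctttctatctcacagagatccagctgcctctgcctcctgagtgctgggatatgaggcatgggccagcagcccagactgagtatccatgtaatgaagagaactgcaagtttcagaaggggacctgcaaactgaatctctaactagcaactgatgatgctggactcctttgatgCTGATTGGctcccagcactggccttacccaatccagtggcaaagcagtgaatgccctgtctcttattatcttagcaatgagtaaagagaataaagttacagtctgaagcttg
These letters or their reverse complement CCAATCAG were in 4.1% of 32851 mouse promoters of the same length, and in 3 of the 7 class II genes for which a promoter was given, namely H2-Aa, H2-Eb1 and H2-Oa. All 3 fell, as did 6 of the 7. A match describes the letters and not a bound site.

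The count of T cell genes that fell depended on the processing, and NK genes were spread around 0. Of 28 genes of the T cell receptor, its coreceptors and naive T cells, 5 fell and the others did not pass, with a median difference of -0.39 against 0.26 over all genes, and 17 were lower at an unadjusted p under 0.05. With dim spots missing 17 were called lower, on the spike-in spots 15 and with quantile normalization 10, but with scan date as a block 2 and with normexp 0. The 28 genes summed to between 0.0288% and 0.063% of the signal at 1 Gy and between 0.0754% and 0.141% at 0.25 Gy, without overlap. Such a drop in share was not particular to T cells. Proteasome genes summed to 0.0682% to 0.0943% at 1 Gy and 0.127% to 0.15% at 0.25 Gy. Red cell membrane genes went the other way, with 0.67% to 1.03% and 0.413% to 0.615%. Ccr7, a homing receptor of naive T cells that B cells also carry, had levels of 5.19, 5.01, 4.96, 4.73 and 4.88 at 0.25 Gy and of 3.27 to 4.09 at 1 Gy, a 2.29-fold fall. Cd2, an adhesion molecule of lymphocytes that is not confined to T cells, fell by 0.89 (SE 0.16), Il7r by 0.81, Cd8a by 0.81 and Cd3g by 0.72 on the log2 scale. Cd3e, a chain of the same receptor complex as Cd3g, had levels of 3.56 to 3.86 at 0.25 Gy and of 3.60 to 4.29 at 1 Gy, a difference of 0.27 that did not pass and whose sign turned with quantile normalization, spike-in scaling, normexp and dim spots missing. None of 16 NK and cytotoxic genes passed (limma, with 2 at an unadjusted p under 0.05 and 0 by the random variance test), with differences of 0.15 for Ncr1 and 0.29 for Prf1.

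The share of neutrophil genes that rose was near the 21.6% of all genes. Of 13 granule protein genes 3 rose, with a median of 0.71, and of 17 genes for mature neutrophil receptors and alarmins 4 rose, with a median of 0.81. Camp, the cathelicidin of secondary granules, had levels of -0.38, -0.34, -0.14, 0.47 and -0.38 at 0.25 Gy and of 1.32 to 2.30 with a median of 1.81 at 1 Gy. All 1 Gy arrays were above all others, with a 3.86-fold difference (adjusted p = 4.06e-05). Ltf, lactoferrin of the same granules, was 5.69-fold higher, with 3 of 5 arrays of 0.25 Gy well above background, and Lcn2, also listed among the acute-phase genes, 2.75-fold. S100a8, a subunit of calprotectin, was 2.50-fold higher and Itgam, an adhesion receptor chain, 2.71-fold, both with overlap between the groups (5.13 to 6.70 against 6.34 to 7.44 for S100a8). The 4 calls among the mature neutrophil genes, S100a8 and Itgam included, became 0 with the median of all probes or the 75th percentile as centre, on the spike-in spots, with normexp, with dim spots missing and without the detection filter, and 1 with quantile normalization. Both neutrophil medians turned below 0 on the spike-in spots, at -0.19 and -0.12, and with scan date as a block 1 of these genes, Camp, was called higher.

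In the monocyte and platelet lists 1 gene each rose, Ace among 18 monocyte genes (2.15-fold) and Vwf among 24 platelet genes (1.80-fold), with list medians of 0.36 and 0.43 against 0.26 over all genes. Pf4, a platelet chemokine, had levels of 9.11, 8.23, 8.99, 9.32 and 9.39 at 0.25 Gy and of 9.42 to 9.91 at 1 Gy. Its difference of 0.61 did not pass, and the sign of its difference turned under quantile normalization, as did that of the median of the platelet list. On the spike-in spots and with dim spots missing the medians of both lists were below 0.

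In the scaling used here the red cell lists had the highest medians. That order did not hold for all of them with the 75th percentile as centre, quantile normalization, normexp or dim spots missing. Nor did it hold with scan date as a block or within the shared slide. Of 20 genes for the red cell membrane, its skeleton and blood groups, all tested, 16 rose with a median difference of 2.03. The list averaged 2.92 to 4.25 on the 1 Gy arrays, 1.41 to 2.23 on the 0.25 Gy arrays and 0.83 to 1.70 in the controls. Slc4a1, the band 3 anion exchanger of the membrane, had levels of 5.99, 6.76, 7.28, 6.54 and 6.92 at 0.25 Gy and of 8.42 to 9.88 with a median of 9.29 at 1 Gy. No array of 0.25 Gy reached those of 1 Gy, and the difference was 5.78-fold (log2 2.53, SE 0.32, adjusted p = 5.03e-05). Icam4, the carrier of the Landsteiner-Wiener blood group, was 6.82-fold higher. The Rh genes Rhd and Rhag rose by 2.41 (SE 0.34) and 2.04 (SE 0.32) and the skeleton genes Ank1 by 2.29 (SE 0.31) and Epb42 by 2.32 (SE 0.37) on the log2 scale. Sptb, a chain of spectrin, had a difference of -0.14, and Gypc, Dmtn and Slc14a1 had differences of 0.50 to 0.67; these 4 did not pass.

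Heme synthesis and iron genes rose nearly throughout, in 20 of 21 tested members, with a median of 1.48, though 1 was called on the spike-in spots and 1 with normexp. Enzymes from the start to the end of the pathway rose, from Alas2, which catalyses its opening step in red cells (1.44, SE 0.17), through Alad (1.39), Uros (1.26), Urod (1.81), Cpox (3.05) and Ppox (1.14) to Fech, which inserts the iron (1.64, SE 0.18). Cpox had levels of -0.18, 0.68, 0.69, 0.73 and 0.65 at 0.25 Gy and of 2.59 to 4.20 with a median of 3.76 at 1 Gy, an 8.30-fold difference. Slc25a37, the mitochondrial iron carrier mitoferrin, had levels of 9.54 to 10.07 at 0.25 Gy and of 11.30 to 12.10 at 1 Gy. Tfrc, the transferrin receptor, rose by 1.84 (SE 0.37) with overlap of the groups. Hmox1, which breaks heme down, had a difference of 0.76 and did not pass.

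Erythroid regulators went in both directions. Of 16 genes 12 were tested, 7 rose and 1 fell. Klf1, a transcription factor that drives red cell genes, had levels of -2.73, -2.78, -2.52, -2.35 and -2.58 at 0.25 Gy and of -1.08 to 0.14 with a median of -0.11 at 1 Gy, a 4.91-fold difference. Its 0.25 Gy arrays were closely grouped and all lay above the control median of -3.11. Zfpm1, the cofactor of GATA1, was 4.57-fold higher, and Gata1 itself rose by 1.41 (SE 0.22). Ahsp, the chaperone of alpha globin, rose by 2.05 and Bcl2l1, a survival gene of erythroblasts, by 2.09. Bcl11a, a repressor of fetal globin that B cells also need, fell by 1.87 (SE 0.18). The Epo receptor gene Epor had a difference of 0.66 and did not pass.

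The genes by which reticulocytes mark proteins with ubiquitin and clear their organelles rose in 16 of 18 tested members, with a median of 1.74. Wdr26, part of a ubiquitin ligase complex, had levels of 3.87, 5.10, 5.13, 4.51 and 4.58 at 0.25 Gy and of 6.34 to 8.07 at 1 Gy, a 6.58-fold difference. Yod1, a deubiquitinase, was 5.88-fold higher. Ube2o, a ubiquitin conjugating enzyme that remodels the reticulocyte proteome, rose by 2.44 (SE 0.21), Trim58 by 1.96, Fbxo7 by 1.72 and Bnip3l, which is needed for the removal of mitochondria, by 1.40. Map1lc3b (0.05) and Ulk1 (0.33), general autophagy genes, did not pass. The medians of all 4 red cell lists stayed above 0 under every scaling tried, and were 1.07, 0.74, 0.82 and 0.16 on the spike-in spots for membrane, heme, clearance and regulator genes. The calls were fewer there, with 8, 1, 4 and 3 genes higher, and with normexp they were 1, 1, 0 and 0. With scan date as a block the medians were 1.44, 1.34, 1.33 and 1.04, while the calls were 1, 3, 1 and 2 higher. Without the 3 arrays that no column of their own group followed, 13 membrane, 12 heme and 14 clearance genes rose.

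**Figure D3:**
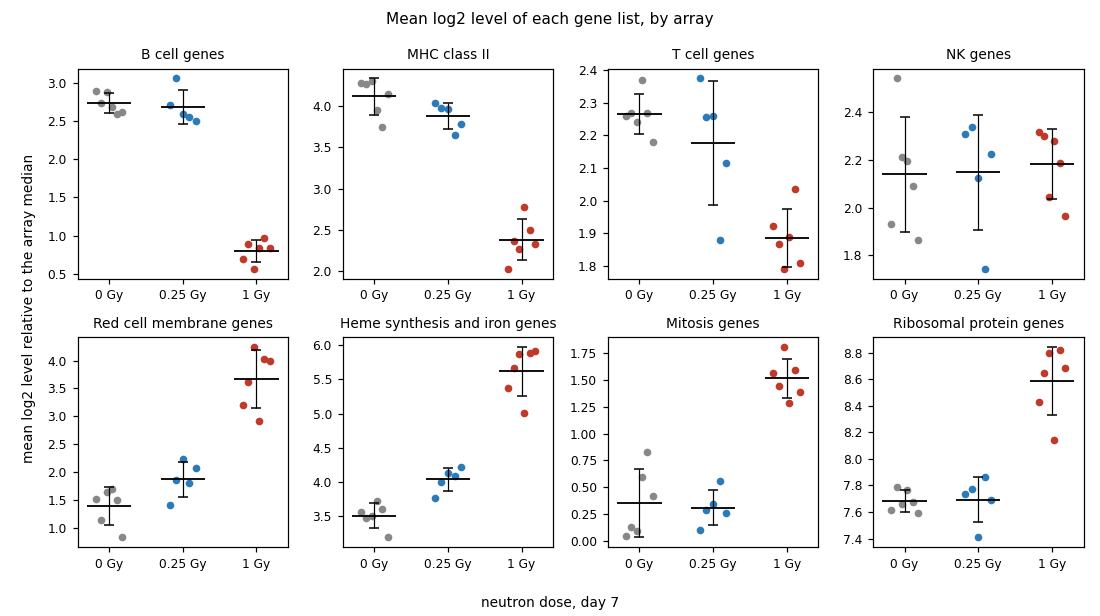
Mean log2 level of 8 gene lists relative to the array median (vertical axis) in 0 Gy, 0.25 Gy and 1 Gy arrays of day 7 (horizontal axis). Points are arrays, horizontal lines means and bars 1 SD; B cell genes lie between 0.56 and 0.96 at 1 Gy and between 2.50 and 3.06 at 0.25 Gy, and red cell membrane genes between 2.92 and 4.25 and between 1.41 and 2.23.

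Mitosis genes were higher at 1 Gy, and those of DNA replication were mixed. Of 41 mitosis genes 31 were tested and 17 rose, with a median of 1.08. Ccnb2, a B-type cyclin, had levels of 1.03, 1.16, 1.23, 1.40 and 0.74 at 0.25 Gy and of 2.96 to 4.46 with a median of 3.87 at 1 Gy, a 6.58-fold difference (adjusted p = 1.12e-05). Ccna2, the cyclin of S phase and early mitosis, was 5.05-fold higher, Cdca3, a cell division gene, 5.78-fold, and Mki67, the proliferation marker Ki-67, rose by 2.23 (SE 0.22). Ube2c and Fzr1, an enzyme and an activator of the ligase that ends mitosis, were 4.40-fold and 4.19-fold higher, the phosphatase gene Cdc25b 3.10-fold and the spindle gene Nusap1 3.23-fold. Cdk1 (1.09), Ccnb1 (0.82) and Cdc20 (0.59) did not pass.

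Of 29 replication genes tested, 5 rose and 2 fell, with a median of -0.09. Lig1, DNA ligase 1, had levels of 8.11, 7.89, 8.19, 8.08 and 8.18 at 0.25 Gy and of 9.57 to 10.40 at 1 Gy, a 3.68-fold rise from closely grouped arrays. Uhrf1, which maintains DNA methylation at replication, was 4.83-fold higher, and Rrm2, a subunit of ribonucleotide reductase, rose by 1.72. Pold1, the catalytic subunit of polymerase delta, fell by 1.24 (SE 0.17) and the licensing factor Cdt1 by 0.92 (SE 0.15). The helicase genes Mcm2 to Mcm7 had differences between -0.42 and 0.56, none past the test.

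In the E2F family, which controls entry into S phase, E2f2 was 4.75-fold higher, with levels of 6.22 to 7.11 at 0.25 Gy and of 8.45 to 9.56 at 1 Gy. E2f1 was 1.73-fold higher, but its difference turned to -0.10 on the spike-in spots. The pocket protein gene Rb1 was 3.86-fold higher and the partner Tfdp2 rose by 1.22, while E2f5 was lower and not well above background on any array of 1 Gy. E2f3 and E2f4 were below the 1.5-fold filter and were not tested. The median of the E2F list, 0.85, turned to -0.95 on the spike-in spots and that of the mitosis genes came to 0.05. With scan date as a block 7 mitosis genes, 2 replication genes and 1 E2F family gene were called higher.

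A group of genes known as targets of ATF4, the factor that answers amino acid shortage, was looked at because Atf5 and Mthfd2 led the rises, and was therefore chosen after the values were seen. Of 30 such genes 18 were tested, 9 rose and 1 fell, with a median of 1.06. Without Atf5 and Mthfd2, which prompted the list, 7 of 16 rose and the median was 0.56. Asns, asparagine synthetase, rose by 3.28 (SE 0.41), from a mean level of -0.29 at 0.25 Gy to 2.99 at 1 Gy. The 2 chains of an amino acid transporter, Slc7a5 and Slc3a2, rose by 2.59 (SE 0.29) and 2.31 (SE 0.24), Nars, an aminoacyl-tRNA synthetase, by 1.82, Trib3, a pseudokinase, by 1.78, Shmt2 of folate metabolism by 1.35 and Pck2 by 1.14. Phgdh, which opens serine synthesis, fell by 0.90 (SE 0.17). Atf4 itself (0.99) and Atf3 (0.03), Chac1 (0.13), Ddit4 (-0.15) and Psat1 (-0.29) did not pass. On the spike-in spots the median of the list was -0.65, with 5 genes higher and 4 lower, and with scan date as a block Atf5, Mthfd2 and Slc3a2 were called.

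ATF4 binds the C/EBP-ATF response element, written TGATGNAA here. The promoters of Asns and Trib3 are printed because both genes rose and both hold these letters or their reverse complement TTNCATCA, shown in capitals. They lie at chr6:7693160-7693459 and chr2:152344011-152344310 in GRCm38.p6, both on the minus strand, and are written 5′ to 3′.
Asns: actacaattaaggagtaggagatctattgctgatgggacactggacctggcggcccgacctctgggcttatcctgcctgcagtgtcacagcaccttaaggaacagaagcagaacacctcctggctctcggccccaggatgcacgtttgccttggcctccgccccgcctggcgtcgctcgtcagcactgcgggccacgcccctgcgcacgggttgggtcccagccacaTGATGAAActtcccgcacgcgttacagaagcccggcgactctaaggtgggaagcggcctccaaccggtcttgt
Trib3: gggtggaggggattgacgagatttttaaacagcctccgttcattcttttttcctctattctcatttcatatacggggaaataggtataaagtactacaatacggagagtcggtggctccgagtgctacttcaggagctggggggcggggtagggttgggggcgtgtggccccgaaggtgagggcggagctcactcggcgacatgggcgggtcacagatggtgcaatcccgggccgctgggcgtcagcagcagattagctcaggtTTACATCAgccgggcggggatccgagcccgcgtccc
The letters begin 23 bases before the start site of Asns and 14 bases after that of Trib3. They were in 3.97% of the 32851 promoters and in 9 of the 24 listed genes with a promoter. Of the 8 called genes with a promoter, Asns, Trib3 and Pck2 held them. The windows of Atf5 and Mthfd2, which had the largest differences, held no match.

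Of 78 cytosolic ribosomal protein genes 59 were tested, of which 38 rose and 1 fell, with a median of 1.02. This direction depended on the scaling. With quantile normalization 1 was higher and 9 lower with a median of -0.34, on the spike-in spots the median was -0.22, and with scan date as a block 4 were higher. Rpl39, a protein of the large subunit, had levels of 7.16 to 7.83 at 0.25 Gy and of 8.71 to 9.68 at 1 Gy, a 3.31-fold difference in the main scaling. Rplp0, of the stalk of the same subunit, was 4.55-fold higher, but the files place its probe on chromosome 13, and many ribosomal protein genes have processed copies that a probe cannot tell apart. Rpl14 fell by 0.91 (SE 0.17).

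Among 28 glutathione and antioxidant genes 13 rose and 1 fell, with a median of 0.83 that turned to -0.07 on the spike-in spots. Several of these enzymes are abundant in red cells. Gpx1 rose by 1.96, Cat, catalase, by 1.83, Prdx2 by 1.67 and Gclm, the modifier subunit of the enzyme that opens glutathione synthesis, was 5.29-fold higher with levels of 2.21 to 3.70 at 0.25 Gy and of 4.60 to 6.08 at 1 Gy. Gstt1, a glutathione transferase, was 5.84-fold higher. Mgst2, a membrane enzyme of the same family, fell by 0.86, and Gclc, the catalytic partner of Gclm, had a difference of -0.45 that did not pass. With scan date as a block 1 of these genes was called higher.

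Of 29 interferon-stimulated genes 5 rose (17.2%, beside 21.6% of all genes), with a median of 0.24, close to that of all genes. None was called higher with normexp or with scan date as a block. Isg15, a ubiquitin-like modifier, had levels of 6.27, 7.04, 7.42, 7.02 and 7.83 at 0.25 Gy and of 8.90 to 10.10 at 1 Gy, a 5.36-fold difference. Oas3, a sensor of double-stranded RNA, was 3.93-fold higher, and Rsad2, Ifit1 and Cmpk2 rose by 1.69, 1.42 and 1.36. Mx1 (-0.68), Mx2 (-0.58) and Ifit3 (-0.42) did not pass and lay on the other side of 0. The median turned below 0 with the median of all probes as centre (-0.04), with dim spots missing (-0.27), on the spike-in spots (-0.72) and with scan date as a block (-0.16).

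Targets of p53, the factor that DNA damage activates, were mostly not called at this time. Of 26 genes 13 were tested and 11 were below the 1.5-fold filter. Ddb2, a damage recognition gene of nucleotide excision repair, fell 1.87-fold and was the 1 p53 target called, but not with scan date as a block (adjusted p = 0.105). Cdkn1a, the cell cycle inhibitor p21, had levels of -3.17, -3.83, -3.42, -1.32 and -2.75 at 0.25 Gy and of -1.70 to -0.69 at 1 Gy. One lower-dose array lay among those of the higher dose, and the difference of 1.58 (SE 0.39, adjusted p = 0.00432) missed the limit on p. That array was 0.25 Gy replicate 4, and without the 3 arrays that no column of their own group followed Cdkn1a was called higher (2.23, limma adjusted p = 0.000978) and Ddb2 was not called (-0.97, adjusted p = 0.00582). Cdkn1a was also called with the replicate block and with a spread shared by all groups of day 7. Ccng1, cyclin G1, had a difference of 0.48 that did not pass and that turned to -0.42 on the spike-in spots. Mdm2 was below the 1.5-fold filter.

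Many repair genes varied too little over the arrays to be tested. Of 41 excision and mismatch repair genes 24 were below the 1.5-fold filter and 14 were tested. Of these 2 rose and 5 fell, with a median of -0.52 against 0.26 over all genes. Without the detection filter 22 were tested, of which 6 rose and 3 fell. Their median there was 0.46 against 0.84 over all genes, so it stayed below the bulk. Without the 1.5-fold filter 38 were tested, of which 2 rose and 13 fell. On the spike-in spots 0 rose and 26 fell of 37, beside 4430 lower of all 15698 genes tested. Neil1, a glycosylase of oxidised bases, had levels of 1.43, 1.28, 1.29, 0.79 and 0.72 at 0.25 Gy and of -0.72 to -0.09 at 1 Gy, a 2.64-fold fall. Of 36 double-strand break repair genes 14 were tested and 3 fell, with a median of -0.37. Without the detection filter their median was 0.16, also below that of all genes. Without the 1.5-fold filter 1 rose and 8 fell of 31, and on the spike-in spots 16 of 31 fell. Prkdc, the catalytic subunit of DNA-PK, was not well above background on any array of 1 Gy and was at least 1.59-fold lower. Polm, a polymerase of end joining, fell 1.98-fold, and Xrcc5, which encodes Ku80, by 0.93 on the log2 scale.

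The remaining lists moved in both directions. Of 20 tested splicing genes 3 rose and 5 fell, with Sf3a2 2.74-fold and Hnrnpl 2.72-fold higher, and with Srsf7, Rbm39 and Hnrnpa1 lower by 0.90 to 0.95 on the log2 scale. Of 11 tested proteasome subunits Psmd4 (2.41-fold) and Psmd2 (2.13-fold) rose, 18.2% beside 21.6% of all genes, and the list median was -0.20. None was called higher with the median of all probes as centre, with normexp or with scan date as a block. With dim spots missing 0 were higher and 5 lower. Among 5 tested aminoacyl-tRNA synthetases Aars rose 1.70-fold, and its difference turned to -0.13 on the spike-in spots; Nars is not counted there because the list holds its newer symbol. Of 8 acute-phase genes Lcn2 rose, and of 16 heart muscle genes, markers of the tissue through which the blood was drawn, 3 were tested and none passed (limma, with 2 at an unadjusted p under 0.05 and 0 by the random variance test). On 8 of the 16 no array was well above background. The 16 summed to at most 0.00158% of the signal on the 11 arrays of the 2 neutron doses at day 7. In the controls of day 7 they summed to between 0.000816% and 0.109%.

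Dose differences at day 7 were then set against those of the same doses at day 1. Tested as a difference of differences over 10826 genes, 1891 (17.5%) had a dose difference that was higher at day 7 and 80 (0.739%) one that was lower, while on the spike-in spots 212 were higher and 4280 lower. For red cell membrane and reticulocyte clearance genes the medians of the dose differences had opposite signs on the 2 days. The median over the membrane list was -1.15 at day 1 and 2.03 at day 7, with 15 of 20 genes called, and for reticulocyte clearance genes -0.87 and 1.74, with 15 of 18 called. Slc4a1 was lower at 1 Gy than at 0.25 Gy by 1.72 on the log2 scale at day 1 and higher by 2.53 at day 7. Both lists had a positive median difference between the days on the spike-in spots (2.06 and 1.11).

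Mitosis genes had medians of -0.30 at day 1 and 1.08 at day 7, with 15 of 31 called, and ribosomal protein genes of -0.59 and 1.02, with 45 of 59 called. On the spike-in spots these 2 lists turned, with median differences between the days of -0.26 and -0.24. E2f2 went from -1.14 to 2.25 and Nusap1 from -1.94 to 1.69. Interferon-stimulated genes had the larger dose difference at day 1, with medians of 1.23 and 0.24, 9 of 29 called lower and 2 higher. The B cell list was lower at 1 Gy on both days, with medians of -1.57 and -2.06, and 1 of its 25 genes was called as differing between them. Class II genes had medians of -1.73 and -1.35, and none was called as differing (limma, with 1 of 10 at an unadjusted p under 0.05).

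The step from 1 Gy to 4 Gy of x-rays at day 7 was also 4-fold in dose and was compared in the same way. The dose difference was higher for neutrons in 2253 genes (20.8%) and lower in 349 (3.22%), and on the spike-in spots in 97 and 9823. B cell genes had a median of -2.02 for x-rays against -2.06, and Vpreb3, Cr2 and Fcer2a were called with a smaller fall after neutrons. Vpreb3 had differences of -4.22 for x-rays and -2.61 for neutrons. On the spike-in spots 17 of the 25 were called the other way, with a larger fall after neutrons. There 9823 of all 15698 genes tested were called in that direction, so the count is not particular to B cells. Red cell membrane genes had a median of 0.11 for x-rays against 2.03, with 12 of 20 called, and heme genes of -0.29 against 1.48, with 14 of 21 called. Slc25a37 was lower by 1.08 at the higher x-ray dose and higher by 1.95 at the higher neutron dose. Atf5 had a difference of 0.27 after x-rays and Mthfd2 of 0.36. Mitosis genes had medians of 0.97 after x-rays and 1.08 after neutrons. As higher for neutrons 7 of 31 were called, near the 20.8% of all genes. The median of their contrast was 0.07 against 0.17 over all genes. Ribosomal protein genes had a median of -0.66 after x-rays, with 47 of 59 called. On the spike-in spots the medians of the contrast between the radiations were below 0 for membrane (-0.12), heme (-0.61), mitosis (-1.92) and ribosomal (-0.97) genes, so that the direction of these contrasts depends on the scaling.

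**Figure D4:**
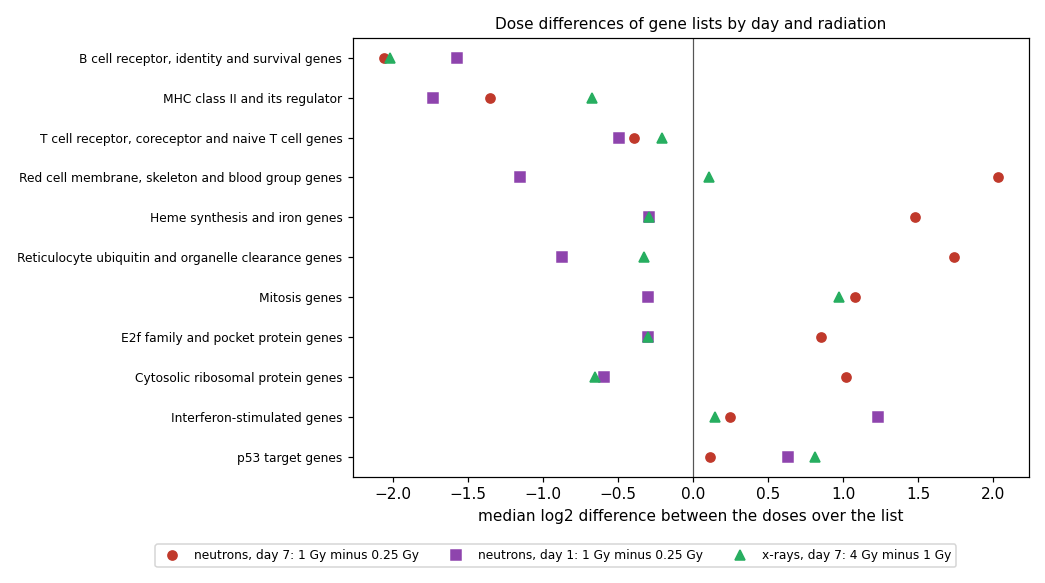
Median log2 dose difference (horizontal axis) over 11 gene lists (rows) for 1 Gy minus 0.25 Gy of neutrons at day 7 (circles) and day 1 (squares) and for 4 Gy minus 1 Gy of x-rays at day 7 (triangles). B cell genes lie near -2 for both radiations at day 7, and red cell membrane genes at 2.03, -1.15 and 0.11.

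**Figure D5:**
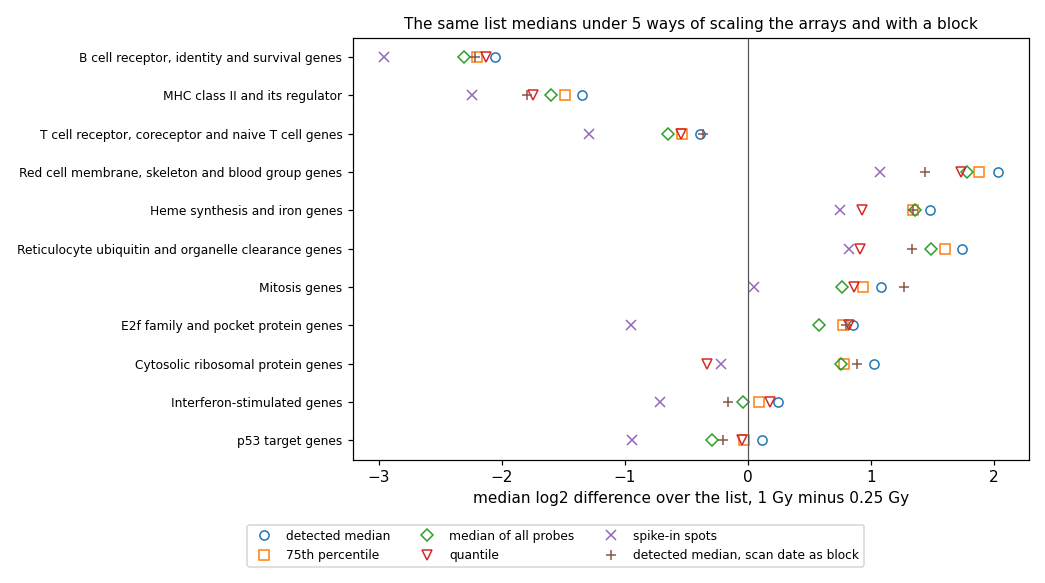
Median log2 difference of 1 Gy minus 0.25 Gy at day 7 (horizontal axis) over 11 gene lists (rows) under 5 ways of scaling the arrays and with scan date as a block (symbols). B cell and class II genes stay to the left of 0 and the red cell lists to the right, while ribosomal protein genes range from -0.34 to 1.02 and interferon-stimulated genes from -0.72 to 0.24.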

How the data were processed

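Gene expression in mouse blood was measured on 1-colour Agilent arrays, 1 mouse per array. The authors deposited background-subtracted Cy3 intensity values for each array, made with Agilent Feature Extraction 12.0.2.2 and not normalized between arrays. Their separate processed table holds log2 values that the authors filtered and normalized between arrays; it was only compared with the arrays, since none of the 11 columns followed its own array, and 61 other per-sample columns were not used. Probe coordinates in the files are those of mm9. The gene name of 28740 of 39429 probes was taken through its accession from RefSeq, of 163 through a synonym, and for 10526 the name in the files was kept.

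Control spots and spots flagged as non-uniform or as outliers were left out, intensities were log2-transformed and averaged over the spots of a probe, and the median over detected probes was subtracted on every array. A probe was detected (19808 probes) when under 25% of the 56 arrays of days 1 and 7 flagged it. It then had to lie 1.5-fold from its median on at least 20% of them (12556 probes), and the brightest probe stood for its gene. The 6 arrays of 1 Gy and 5 of 0.25 Gy were compared with limma 3.58.1 in R 4.3.3, 2-sided, without covariates, with calls made at p below 0.001 together with a false discovery rate (Benjamini-Hochberg, over all genes tested, given as the adjusted p) below 0.05. A difference of dose differences was tested against day 1 and against x-rays. A probe not well above background on any array of a group gives only a bound. Alternatives were other scalings, filters, background correction by normexp with an offset of 50, the random variance test that the article's methods name, blocks and left-out arrays; leaving out 3 arrays together and the shared slide were chosen after seeing the data. The scripts were tested on simulated data. The number of arrays limits the precision.

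The members and gene lists were chosen with earlier results of these data known. Named were, among called genes that all arrays of 1 dose or of both measured well above background, the 4 with the largest rise and the 4 with the largest fall that had a gene symbol and no overlap between the groups, the 2 members of each list with the largest difference, and 17 genes given by name; other list members were picked as examples after their values were seen. Some genes that fall under this rule are not reported here. Promoters came from RefSeq (GRCm38.p6).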

Additional observations from a re-analysis of the deposited data

Results flagged for a closer look

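Some values stood out among the arrays of their own group. The 122 groups of 5 or 6 values were levels of the named genes and a few measures of array signal. Of these groups 10, all of gene levels, held an array farther from the others than Dixon's 95% limit allows, and chance flags about 1 in 20 groups. At 1 Gy these were Neil1 in replicate 6 (level -0.72, others -0.31 to -0.09), and Rplp0 (10.7, others 11.5 to 11.8) and Ccng1 (0.14, others 0.58 to 0.65) in replicate 4. At 0.25 Gy they were Tmem86b (-5.54, others -3.68 to -3.03) and Cpox (-0.18, others 0.65 to 0.73) in replicate 1, Camp in replicate 4 (0.47, others -0.38 to -0.14), and 4 genes in replicate 2. Those 4 were Tnfrsf13c (4.25, others 2.68 to 3.00), Vpreb3 (5.61, others 4.05 to 4.29), Vwf (2.64, others 3.32 to 3.53) and Cdca3 (-0.11, others -0.51 to -0.43).

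For 27 of 58 named genes tested, the dose difference at day 7 differed from that at day 1 (limma contrast). Most of these genes were named for a large dose difference at day 7, so the count is a description, and 17.5% of all genes were called in the same direction. The log2 difference between the days was 4.18 for Atf5, 4.34 for Mthfd2 and 5.09 for Dppa2. Among red cell genes it was 4.25 for Slc4a1, 3.56 for Icam4, 3.54 for Slc25a37, 2.30 for Klf1, 2.13 for Zfpm1, 3.28 for Wdr26 and 3.47 for Yod1. Among cell cycle and replication genes it was 3.33 for Ccnb2, 2.80 for Cdca3, 2.85 for Uhrf1, 3.24 for Lig1, 3.39 for E2f2, 2.22 for Rb1, 3.52 for Ube2c, 2.60 for Fzr1, 3.59 for Ccna2, 3.05 for Cdc25b and 3.63 for Nusap1. For the others it was 2.40 for Isg15, 1.65 for Hnrnpl, 2.59 for Rplp0, 2.37 for Rpl39, 1.58 for Psmd4 and 2.36 for Gclm.

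For 31 of these genes the neutron dose difference differed from that of x-rays at day 7, a count that the choice of genes affects in the same way and that stands beside 20.8% of all genes. Neutrons minus x-rays came to 4.90 for Atf5, 3.76 for Mthfd2, 2.60 for Tmem86b and 2.72 for Dppa2. In the white cell lists it was 1.61 for Vpreb3, 1.54 for Camp, 3.29 for Itgam and 1.08 for Ace. Red cell genes had values of 1.98 for Icam4, 2.41 for Slc4a1, 2.84 for Cpox, 3.03 for Slc25a37, 1.65 for Klf1, 2.83 for Wdr26 and 2.63 for Yod1. Cell cycle and replication genes had 1.79 for Ccnb2, 3.49 for Lig1, 2.61 for E2f2, 2.56 for Rb1, 2.86 for Ube2c, 2.38 for Fzr1, 2.20 for Ccna2, 2.86 for Cdc25b and 2.08 for Nusap1. The others were 2.61 for Isg15, 2.37 for Sf3a2, 1.70 for Hnrnpl, 3.03 for Rplp0, 3.08 for Rpl39, 1.37 for Psmd4 and 2.87 for Gclm.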

How the results depend on the processing

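The 3360 genes called between the doses became 87 with normexp background correction (35 higher, 52 lower), 7968 without the detection filter, 5561 by the false discovery rate alone, 1237 with scan date as a block, 692 with slide as a block and 1597 within the shared scan date. Alternatives chosen after seeing the data gave 522 within the shared slide and 2038 without the 3 arrays that no column of their own group followed. Leaving out each array in turn gave 2706 to 3721. With the replicate block 2515 were called. The titles give the samples a shared number and state no pairing. The correlations of same-numbered deviations ran from -0.0989 to 0.468 and cannot settle whether there was one. The contrast between the days (1971) became 4492 on the spike-in spots, 278 with normexp and 5902 without the detection filter, and 1765 to 2280 with 1 array left out. The contrast between the radiations (2602) became 9920, 641 and 7257, and 2285 to 2937. The share of spots well above background, lower at 1 Gy by 8.45 points, gave 1.96 when spots over 2 times the background were counted instead (exact permutation p = 0.978, with 86.5% on 1 Gy replicate 4), and -9.58 to -7.38 with 1 array left out. Cd3e turned to -0.13 with quantile normalization, -0.63 on the spike-in spots, -0.20 with normexp and -0.18 with dim spots missing. Pf4 turned to -0.50 with quantile normalization and -0.29 on the spike-in spots, where Vwf (-0.047), Aars (-0.13), Ccng1 (-0.42) and E2f1 (-0.10) turned too. The cause of these changes was not tested. Over the named genes, 908 other values kept direction and call, 261 kept direction and lost the call, and 6 gained it. Dim probes at 1 Gy limit the falls that can be measured.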
